A study of Homo sapiens with 24 samples.

Results

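U87-R is a derivative of U87 MG, an established human glioblastoma line, that resists temozolomide, and the comparison of the 2 lines in the solvent DMSO is described here. It rests on 6 of the 24 libraries of the series, 3 labelled U87-R and 3 labelled U87 MG. They were chosen by label alone, without regard to any measured value. The U87-R cells grew in EMEM with 10% serum and 50 µM temozolomide, and the U87 MG cells in the same medium with none of the drug. Both lines received DMSO for 96 h, the counterpart of a 50 µM dose of STM2457, an inhibitor of the m6A writer METTL3, that other libraries received. A stable difference between the lines and a response to the temozolomide in the medium cannot be told apart in this design. The labels do not say how many clones U87-R comes from or whether the 3 replicates were separate cultures, so p-values may measure technical spread only.

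Temozolomide is an alkylating drug that adds methyl groups to DNA bases. The methyl group on the O6 position of guanine is the toxic one, because mismatch repair acts on the mispair it forms and the strand breaks that follow stop or kill the cell. The protein encoded by MGMT removes that methyl group, and its gene is silenced by promoter methylation in many glioblastomas. Loss of mismatch repair and gain of MGMT are the classic routes to resistance. Chromosome losses and gains are common in glioma lines grown for a long time.

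Polyadenylated RNA was sequenced from a stranded TruSeq library. The deposited table listed 28099 genes as normalized counts, and the 16306 genes with a mean of at least 10 over the 6 libraries were tested with limma on log2 of the value plus 1. The other 11793 genes fell below that filter, with means of 10.0027 just inside and 9.9965 just outside it. Library totals of these normalized counts ran between 22078186 and 23997533. Pearson correlations of log2 values were 0.966 to 0.979 between replicates of a line and 0.930 to 0.957 between lines. U87-R replicate 3 stood furthest from its group, with an SD of its log2 difference from the other 2 replicates of 0.66, against 0.526 to 0.596 for the other libraries. Every value below is a normalized count for the libraries in the order of their replicate numbers, changes are U87-R minus U87 MG on the log2 scale with their standard error (SE), and "rose", "fell" and "passed" mean an adjusted p under 0.05 (Benjamini and Hochberg, over all 16306 genes). 

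The promoters of 5 genes that were at or near 0 in U87 MG and present in U87-R are shown first, since promoter methylation acts on CG pairs and MGMT is the gene known for it. DNA methylation was not measured in this series. The sequences are those of RefSeq on GRCh38.p14, 250 bases before to 50 bases after the annotated start, with every CG pair in capitals.
MGMT: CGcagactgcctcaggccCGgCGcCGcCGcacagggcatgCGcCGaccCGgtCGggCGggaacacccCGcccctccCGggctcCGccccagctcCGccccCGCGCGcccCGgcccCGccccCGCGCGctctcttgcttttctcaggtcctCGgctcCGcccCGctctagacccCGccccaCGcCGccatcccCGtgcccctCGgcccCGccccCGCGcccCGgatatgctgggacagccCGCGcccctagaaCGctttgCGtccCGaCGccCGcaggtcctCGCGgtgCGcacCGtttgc
CHFR: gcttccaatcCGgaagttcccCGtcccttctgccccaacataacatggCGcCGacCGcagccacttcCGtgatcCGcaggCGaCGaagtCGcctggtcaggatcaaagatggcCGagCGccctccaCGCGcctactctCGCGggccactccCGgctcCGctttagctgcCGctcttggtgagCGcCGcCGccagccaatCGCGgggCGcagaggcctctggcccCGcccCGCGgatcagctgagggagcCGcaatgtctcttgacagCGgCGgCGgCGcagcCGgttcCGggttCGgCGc
ZNF570: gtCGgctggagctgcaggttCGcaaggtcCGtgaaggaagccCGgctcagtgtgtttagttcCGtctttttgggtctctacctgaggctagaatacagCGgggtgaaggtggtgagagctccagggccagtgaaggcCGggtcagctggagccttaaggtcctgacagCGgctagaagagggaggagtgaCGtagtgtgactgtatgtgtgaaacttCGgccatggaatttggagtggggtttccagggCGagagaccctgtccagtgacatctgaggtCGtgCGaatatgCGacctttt
ZNF90: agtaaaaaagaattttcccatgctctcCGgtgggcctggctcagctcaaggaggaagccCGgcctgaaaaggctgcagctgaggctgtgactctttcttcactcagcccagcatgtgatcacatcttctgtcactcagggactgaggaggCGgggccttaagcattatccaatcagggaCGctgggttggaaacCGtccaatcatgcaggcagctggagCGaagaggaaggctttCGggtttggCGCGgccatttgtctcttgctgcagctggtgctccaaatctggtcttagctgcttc
ZNF737: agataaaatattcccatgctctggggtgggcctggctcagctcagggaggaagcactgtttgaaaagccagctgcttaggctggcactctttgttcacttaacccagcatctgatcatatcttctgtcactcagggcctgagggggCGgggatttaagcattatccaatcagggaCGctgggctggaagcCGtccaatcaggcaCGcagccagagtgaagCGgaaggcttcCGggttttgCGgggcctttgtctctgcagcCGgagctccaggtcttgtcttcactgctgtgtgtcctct
MGMT lies on the plus strand at chr10:129466991-129467290, CHFR on the minus strand at chr12:132887556-132887855, ZNF570 on the plus strand at chr19:37467522-37467821, ZNF90 on the plus strand at chr19:20077750-20078049 and ZNF737 on the minus strand at chr19:20565732-20566031. The windows of MGMT and CHFR hold 45 and 37 CG pairs, a number reached by 3.39% and 11.1% of the 27305 promoters in the table. The 3 zinc finger promoters hold 14, 9 and 8, and 50.1% to 60.1% of promoters have as many. ZNF90 and ZNF737, 2 genes of the 19p12 cluster, are identical over 80.6% of an alignment of their windows. Of the 16306 tested genes, 11284 had a promoter in the table, too few to compare groups of genes.

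Among the differences between the lines, 2 patterns stood out, although most calls belonged to neither chromosome stretches nor zinc finger clusters. A small number of genes were near 0 in U87 MG and expressed in U87-R, among them MGMT, the mitotic checkpoint gene CHFR and many zinc finger genes of chromosome 19. Whole stretches of chromosomes 4, 5 and 14 were shifted by a modest amount, down for the first 2 and up for the third. Of 16306 genes tested, 697 passed (4.27%), 510 higher (3.13%) and 187 lower (1.15%) in U87-R. Most calls lay outside chromosome 14, the stretches of chromosomes 4 and 5 and the chromosome 19 zinc finger genes (64.9% of rises, 61.0% of falls). The rises were larger than the falls, with a median log2 change of 1.6 against -1.06, and 96 rises and 22 falls reached a size of 4. The number that passed was 315 without U87-R replicate 2, 330 without U87 MG replicate 2 and 420 without U87-R replicate 3.

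MGMT had the largest log2 change of the named genes. It had 1215, 1228 and 686 in U87-R, against 2.18, 0 and 0 in U87 MG, so that the gene was clearly expressed in every U87-R library and listed at 0 in 2 U87 MG libraries (adjusted p = 5.5e-05). Since U87 MG is at the floor, the size of the fold cannot be given. In libraries treated with STM2457, whose levels were set in separate tables, MGMT had 739, 724 and 477 in U87-R, against 0, 1.16 and 0 in U87 MG. Its nearest tested neighbours on chromosome 10 did not share the pattern. On one side, INSYN2A had 419, 449 and 136 in U87-R, against 350.5, 359 and 268 in U87 MG and MKI67 had 8554, 8203 and 11149 in U87-R, against 9732, 11402 and 12449 in U87 MG, and the groups overlapped in both. On the other side, EBF3 and C10orf143 were low in both lines, with overlapping values, and GLRX3, an iron-sulfur glutaredoxin, had a change of -0.45 (SE 0.12) that did not pass (adjusted p = 0.067). The phosphatase gene PTPRE, between INSYN2A and MKI67 in the order of tested genes, rose by 0.75 (SE 0.15), a call lost when any library but U87 MG replicate 1 was left out (highest adjusted p 0.11).

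The other 2 direct repair enzymes did not pass. ALKBH2, a dioxygenase that repairs alkylated bases in double-stranded DNA, had 281, 274 and 276 in U87-R, against 343, 321 and 296 in U87 MG. ALKBH3, which acts on single-stranded DNA, had 427, 464 and 366 in U87-R, against 602, 488 and 453 in U87 MG. In both, U87-R was the lower line, and the ranges overlapped only for ALKBH3. Of 9 mismatch repair genes tested none passed, where 4.27% of all genes did. Their median log2 change was -0.207, where the median over all genes was -0.014. Only 2 of the 9 had a change above 0, so most were somewhat lower in U87-R. PMS2, a subunit of the nuclease that cuts the strand with the error, had 680.0, 636 and 443 in U87-R, against 629, 649 and 666 in U87 MG, and MSH6, a subunit of the complex that recognises mispairs, had 2546, 2614 and 2394 in U87-R, against 2425, 2731 and 2604 in U87 MG. Replicate 3 was lowest among the U87-R libraries in both genes, and the groups overlapped. A p that misses the threshold does not show that these genes are alike in both lines.

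In base excision repair, 1 of 20 genes rose (5.0%, where 3.13% of all genes did), the AP endonuclease gene APEX1 (adjusted p = 0.034). It had 1746, 1889.5 and 2238 in U87-R, against 1363, 1271 and 1371 in U87 MG, with no overlap, a log2 change of 0.55 (SE 0.12). Its call was lost when any library but U87-R replicate 1 was left out (highest adjusted p 0.145), and it lies on chromosome 14, whose genes were shifted as a whole. MPG, the glycosylase that removes alkylated purines, had a change of 0.18 (SE 0.12), PARP1 one of 0.06 (SE 0.13) and XRCC1 one of 0.03 (SE 0.12), and none of these passed. None of 30 genes of homologous recombination and the Fanconi anemia pathway passed, where 4.27% of all genes did, and their median was -0.054.

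Of 21 genes of checkpoint kinases and mitotic checkpoints, 1 rose and 1 fell (4.76% each, where 3.13% of all genes rose and 1.15% fell). CHFR, a ubiquitin ligase that holds cells before mitosis when the spindle is disturbed, had 160.2, 121 and 345 in U87-R, against 0, 0 and 4.40 in U87 MG (adjusted p = 0.0015). Replicate 3 was the highest library in each line, and the lines were far apart. CHFR passed the filter on low values only through its level in U87-R. MAD2L1, a spindle checkpoint protein on chromosome 4, had 519.9, 569.8 and 484 in U87-R, against 808, 1075 and 844 in U87 MG, a log2 change of -0.78 (SE 0.14), outside the shifted stretch of that chromosome. That call was lost without any one of the U87-R libraries or U87 MG replicate 2 (highest adjusted p 0.0717). The kinases CHEK1, CHEK2, ATM, ATR and WEE1 had changes between -0.19 and 0.03, and none passed.

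Few cell cycle genes passed. None of 32 G2 and M phase genes passed, where 4.27% of all genes did. Their median was -0.139, and 9 of the 32 were above 0. Of 34 S phase genes 1 fell (2.94%, where 1.15% of all genes did). Their median was -0.185, and 4 of the 34 were above 0, where the median over all genes was -0.014. The S phase gene that fell was the histone mRNA binding protein gene SLBP, which is in the shifted stretch of chromosome 4. Its call was lost when any library but U87 MG replicate 1 was left out (highest adjusted p 0.134). The exception was CCND2, a D-type cyclin, which had 664, 772 and 1294 in U87-R, against 46.6, 21.4 and 35.2 in U87 MG, a rise of 4.69 (SE 0.33), with an adjusted p of 0.00028. The lowest U87-R library was many times the highest U87 MG library. CCND1, the main D-type cyclin of these cells by normalized count, had 17348, 18313 and 14299.9 in U87-R, against 19760.1, 22590.1 and 21053 in U87 MG, and its change of -0.35 (SE 0.12) did not pass, nor did that of CDK4, at -0.03 (SE 0.11). Of 29 p53 targets 1 rose (3.45%, where 3.13% of all genes did). This was TP53I3, with a rise of 1.13 (SE 0.21). Its call was lost without U87-R replicate 1 or 3 or U87 MG replicate 2 or 3 (highest adjusted p 0.0695). The p53 target CDKN1A had 4687, 4968 and 3727 in U87-R, against 4438, 4338 and 4891 in U87 MG, with overlapping groups.

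Genes that set or read the marks named in the study's title did not pass. None of 23 m6A writers, erasers and readers passed, where 4.27% of all genes did, and their median was -0.06. METTL3, the catalytic writer on chromosome 14, had 753, 798 and 902 in U87-R, against 588, 576 and 576 in U87 MG, with no overlap between lines, and its change of 0.49 (SE 0.12) missed the threshold at an adjusted p of 0.052. Its partner METTL14 had a change of -0.01 (SE 0.18) and the eraser gene FTO one of 0.19 (SE 0.13). None of 25 genes of DNA methylation and silencing passed, where 4.27% of all genes did, and their median was 0.001. Among drug handling genes, 1 of 29 ABC transporters rose and 1 fell (3.45% each, where 3.13% of all genes rose and 1.15% fell). The fall, ABCA13, passed the filter on low values only through U87 MG. ABCC3, an exporter of organic anions, had 3610.1, 3478 and 4267 in U87-R, against 2470.1, 2364 and 2297 in U87 MG, a rise of 0.67 (SE 0.11) that was lost without U87 MG replicate 2 (adjusted p 0.0591). The multidrug transporter gene ABCG2 had 45.7, 64.5 and 33.4 in U87-R, against 85.0, 76.3 and 91.2 in U87 MG, without overlap but short of the threshold (adjusted p = 0.17). Of 31 glutathione and NRF2 target genes 1 rose (3.23%, where 3.13% of all genes did). This was NQO1, with a rise of 0.62 (SE 0.13). Its call was lost when any library but U87 MG replicate 1 was left out (highest adjusted p 0.124).

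**Figure D1:**
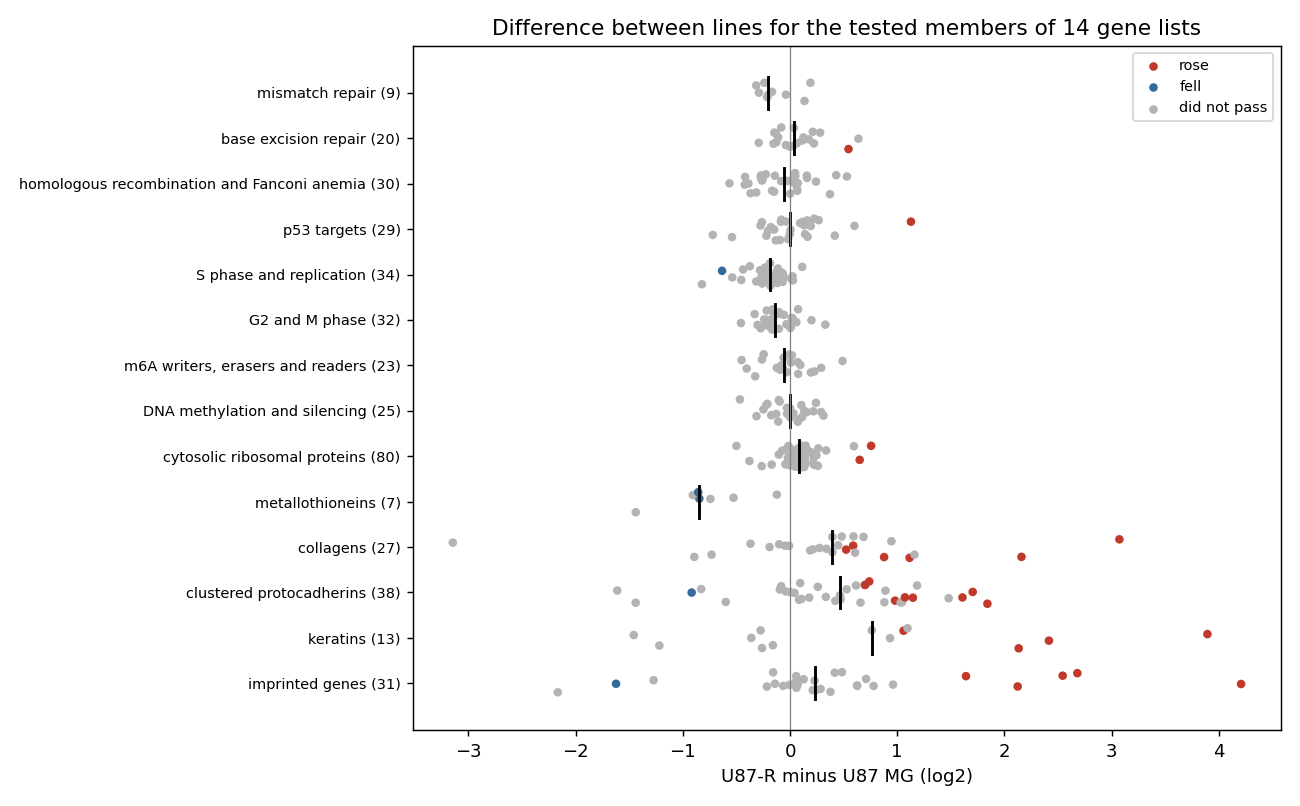
Log2 difference between U87-R and U87 MG (x axis) for the tested members of 14 gene lists (rows, with the number tested), 1 point per gene. Red points rose, blue points fell, gray points did not pass, and the black line is the list's median. The medians of the repair, cell cycle, m6A and DNA methylation lists lie between -0.207 and 0.033. Those of mismatch repair, S phase and G2 and M phase are the lowest of these. Collagens, clustered protocadherins, keratins and imprinted genes spread to the right.

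The largest single differences were in genes of varied function, and many were near 0 in U87 MG and clearly expressed in U87-R. IGFBP2, a secreted binder of insulin-like growth factors that is abundant in high-grade glioma, had 3939, 4329 and 5346 in U87-R, against 90.2, 55.0 and 84.9 in U87 MG, a rise of 5.89 (SE 0.20), with an adjusted p of 4.6e-06. The groups were more than an order of magnitude apart. IGFBP5, of the same family, had 991, 968 and 1793 in U87-R, against 324, 369 and 475 in U87 MG and rose by 1.64 (SE 0.25). With IGFBP3, 3 of 11 genes of the insulin-like growth factor system rose (27.3%, where 3.13% of all genes did). IGFBP3 had a change of 0.94 (SE 0.20), and its call was lost when any library but U87 MG replicate 3 was left out (highest adjusted p 0.126). DOCK8, a guanine nucleotide exchange factor known from leukocytes, had 513, 753 and 981 in U87-R, against 6.48, 4.16 and 47.6 in U87 MG. PIK3R6, a regulatory subunit of phosphoinositide 3-kinase gamma, had 465, 383 and 453 in U87-R, against 7.77, 14.8 and 10.4 in U87 MG. In both, every U87-R library was above every U87 MG library by a wide margin, although U87 MG replicate 3 of DOCK8 was well above its group. PTGS1, the constitutive cyclooxygenase gene, had 800.4, 681 and 991 in U87-R, against 22.2, 18.8 and 74.2 in U87 MG and rose by 4.65 (SE 0.45). The inducible cyclooxygenase gene PTGS2 moved the other way, with a change of -1.40 (SE 0.27), a call lost without U87-R replicate 2 or 3 or U87 MG replicate 2 or 3 (highest adjusted p 0.103).

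The receptor gene KIT, for stem cell factor, had 44.1, 50.2 and 33.3 in U87-R, against 0, 0 and 1.05 in U87 MG, and so was present at a low level in U87-R and near 0 in U87 MG. It was 1 of 2 rises among 36 receptor tyrosine kinases and ligands (5.56%, where 3.13% of all genes rose). KIT passed the filter on low values only through its level in U87-R, so the share describes the tested genes. The other was FGF7, a fibroblast growth factor, with 549, 398 and 452 in U87-R, against 80.1, 105 and 185 in U87 MG and a change of 1.99 (SE 0.29). GAS6, the ligand of the receptor AXL, fell, with a change of -0.85 (SE 0.12), while AXL had 10976, 12546 and 18072 in U87-R, against 10609, 12504 and 15937 in U87 MG and did not pass. The chemerin receptor gene CMKLR1 had 162, 151 and 117 in U87-R, against 0.980, 6.33 and 0.828 in U87 MG. In the libraries treated with STM2457, it had 45.8, 26.8 and 193 in U87-R, against 1.03, 2.71 and 0 in U87 MG, with a much wider spread in U87-R.

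Falls were mostly smaller. LDOC1, a retrotransposon-derived gene of the X chromosome, had 3.73, 0.503 and 15.4 in U87-R, against 476, 303 and 383 in U87 MG, a log2 change of -6.29 (SE 0.73), with an adjusted p of 0.0022. ACTL8, an actin-like gene normally expressed in testis, had 12.4, 12.4 and 28.5 in U87-R, against 204, 307 and 522 in U87 MG, and CACNG8, an auxiliary subunit of AMPA receptors and calcium channels, had 13.99, 23.3 and 27.8 in U87-R, against 162, 232 and 156 in U87 MG. The lowest U87 MG value of each of these 3 genes was several times its highest U87-R value. TIMP3, an inhibitor of matrix metalloproteinases bound to the matrix, was the most abundant of the 20 largest falls among genes with a mean of at least 100, with 2339, 2716 and 3819 in U87-R, against 9555, 9020.3 and 8781 in U87 MG and a change of -1.65 (SE 0.16). MMP14, a membrane-bound matrix metalloproteinase gene on chromosome 14, rose by 0.63 (SE 0.09). These were the only passing genes among 16 metalloproteinases and TIMPs (6.25% each way, where 3.13% of all genes rose and 1.15% fell). By the rule of a mean of at most 5 in one line and at least 100 in the other, 16 genes were near 0 in U87 MG and 2 in U87-R. Both of the genes near 0 in U87-R lie on chromosome 18. The signalling adaptor gene DOK6 had 6.36, 6.83 and 0 in U87-R, against 97.1, 168 and 83.3 in U87 MG, and its call was lost without U87 MG replicate 2 (adjusted p 0.0583). The membrane protein gene TMEM200C had 0.825, 3.70 and 0 in U87-R, against 130.4, 123 and 77.2 in U87 MG.

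**Figure D2:**
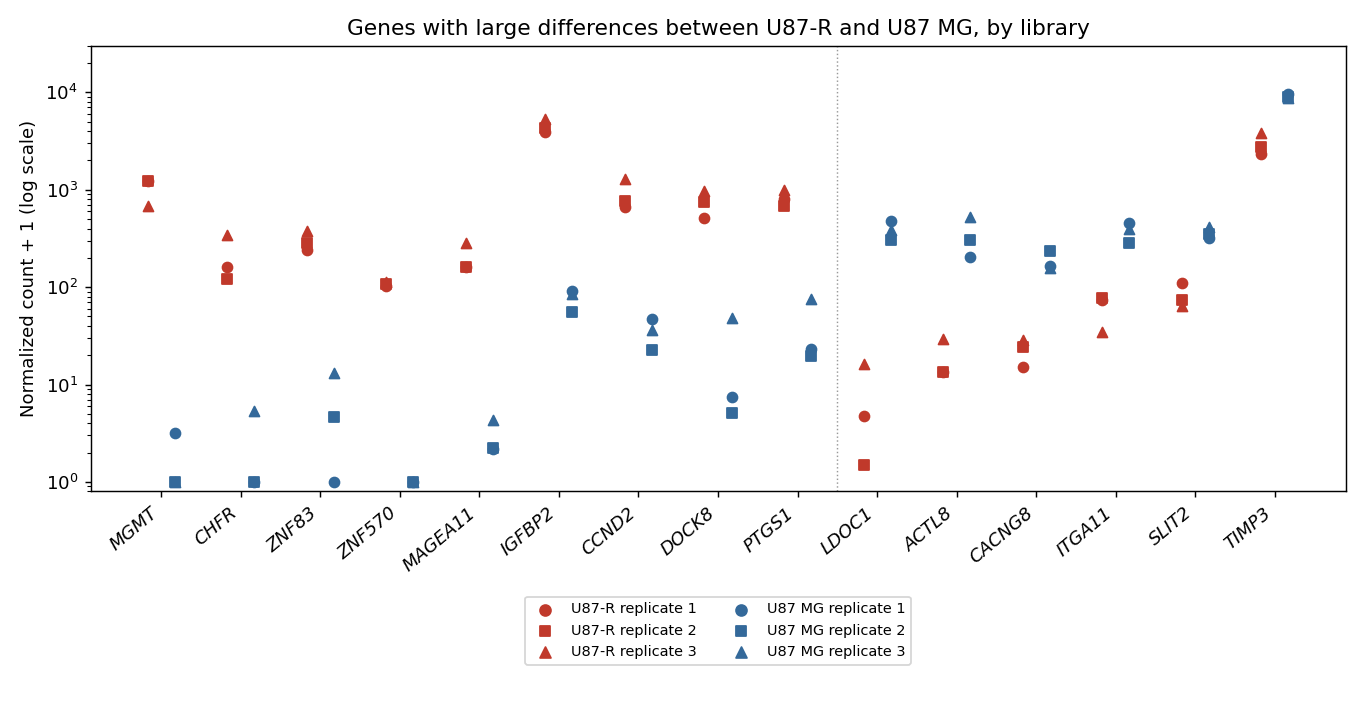
Normalized count plus 1 (y axis, log scale) of 15 genes (x axis) in each library, with the 3 U87-R libraries in red on the left of each pair and the 3 U87 MG libraries in blue on the right. The 9 genes left of the dotted line rose and the 6 right of it fell, and the groups do not overlap in any of them.

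The 20 largest rises and 20 largest falls among passing genes whose mean reached 100 and whose groups did not overlap were looked up in the libraries treated with STM2457, which share no library with the comparison. Levels of the 2 lines come from separate tables there, so no test was made. Of the 20 rises, 20 had all U87-R libraries above all U87 MG libraries, where 8.34% of all genes did. Of the 20 falls, 17 had all U87-R libraries below, where 24.2% did. ITGA11, a collagen-binding integrin gene, was an exception. It had 73.1, 76.4 and 33.8 in U87-R, against 453, 284 and 391.8 in U87 MG in DMSO, and in STM2457 it had 8.08, 5.81 and 2.72 in U87-R, against 14.7, 7.21 and 106 in U87 MG, so the U87 MG level itself was lower there.

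Collagen and cadherin genes included rises and integrin genes included falls. Of 27 collagen genes tested of 40 in the table, 6 rose (22.2%) and none fell, with a median of 0.395, where 3.13% of all genes rose. COL5A3, a fibrillar collagen chain, had 2421, 1933 and 2598 in U87-R, against 336, 222 and 272 in U87 MG, a rise of 3.07 (SE 0.18). COL13A1, a membrane-bound collagen, had 2949, 3520.0 and 4493 in U87-R, against 664, 889.5 and 884 in U87 MG, and COL12A1, which associates with fibrils, rose by 1.12 (SE 0.13). COL6A1, a chain of the beaded collagen VI filaments, had 61663, 55983 and 64477 in U87-R, against 34956, 32881 and 31242 in U87 MG. COL6A2 and COL6A3 rose by 0.52 (SE 0.11) and 0.59 (SE 0.14). The COL6A2 call was lost when any library but U87 MG replicate 1 was left out (highest adjusted p 0.11), and that of COL6A3 whichever library was left out (highest adjusted p 0.212). COL1A1 had 12132, 12997 and 17409.6 in U87-R, against 12725, 8960.4 and 16278 in U87 MG, with overlapping groups. LAMA5, a laminin alpha chain of basement membranes, had 16616, 16332 and 16089 in U87-R, against 4290.5, 3581 and 1973 in U87 MG and rose by 2.39 (SE 0.24). Of 9 cadherins 2 rose (22.2%), CDH11, a mesenchymal cadherin, by 2.95 (SE 0.21) and CDH4, retinal cadherin, by 1.97 (SE 0.21). CDH11 had 1034, 1122 and 1245 in U87-R, against 198, 110.4 and 139.7 in U87 MG. None of 17 integrins rose and 2 fell (11.8%, where 1.15% of all genes fell). These were ITGA11, described above, and ITGB5, with a change of -0.48 (SE 0.09) and a call lost without U87-R replicate 1 or 2 or U87 MG replicate 1 or 2 (highest adjusted p 0.0942). L1CAM, a neural adhesion molecule, had 932, 736 and 2462 in U87-R, against 52.2, 152 and 233 in U87 MG.

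Clustered protocadherins are adhesion proteins encoded in tandem on chromosome 5, outside its shifted stretch. Of 38 tested of 52 in the table, 8 rose (21.1%, where 3.13% of all genes did) and 1 fell (2.63%, where 1.15% did). PCDHB15 had 129, 116 and 184 in U87-R, against 36.8, 41.1 and 37.3 in U87 MG and rose by 1.84 (SE 0.25). PCDHGB1 had 370.2, 471 and 534 in U87-R, against 139.9, 138 and 137 in U87 MG and PCDHGA10 had 362, 404 and 402 in U87-R, against 172, 196 and 186 in U87 MG, both tight within each line. PCDHGA9, in the same array as PCDHGA10, had 155, 149 and 154 in U87-R, against 356, 233 and 292 in U87 MG, a change of -0.92 (SE 0.19), and this call was lost when any library but U87 MG replicate 2 was left out (highest adjusted p 0.105). Members of the gamma array share 3 exons at their ends, so reads in these can be split between members. In axon guidance, 4 of 51 genes rose (7.84%, where 3.13% of all genes did) and 3 fell (5.88%, where 1.15% did). EPHA3, among the falls, passed the filter on low values only through U87 MG, with a mean of 67.5 against 4.09 in U87-R. These shares therefore describe the tested genes. The plexin gene PLXNA4 had 381, 567 and 799 in U87-R, against 153, 115 and 178 in U87 MG, and SLIT2, a repellent ligand in the shifted stretch of chromosome 4, had 110.0, 72.1 and 63.3 in U87-R, against 319, 347 and 415 in U87 MG.

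Imprinted genes, which are expressed from the copy of 1 parent, included 5 rises (16.1%, where 3.13% of all genes rose) and 1 fall (3.23%, where 1.15% fell) among 31 tested. Of the 5 rises, 3 (MEG3, MEG8 and MEG9) are of a single cluster on chromosome 14, whose genes were shifted as a whole. MEG3, a long noncoding RNA of the imprinted cluster at the end of chromosome 14, had 6321, 5983 and 5983 in U87-R, against 1079, 989 and 1068 in U87 MG, the steadiest large rise of the list at 2.54 (SE 0.09), with an adjusted p of 4.6e-06. MEG9, of the same cluster, had 132, 68.1 and 86.0 in U87-R, against 21.3, 11.9 and 9.53 in U87 MG. MEG8 rose by 2.12 (SE 0.41), a call lost without U87-R replicate 2 or 3 or U87 MG replicate 2 (highest adjusted p 0.0883). The rise of MEG3 was several times the median of chromosome 14. MEST, on chromosome 7, had 2324, 2824 and 3833 in U87-R, against 1117, 789.6 and 937 in U87 MG. ZNF331, an imprinted zinc finger gene in the 19q13 clusters, had 72.3, 119 and 185 in U87-R, against 11.5, 2.21 and 5.46 in U87 MG. It passed the filter on low values only through U87-R, so the share of imprinted rises describes the tested genes. NDN, a growth suppressor of the Prader-Willi region, had 49.9, 31.5 and 45.4 in U87-R, against 138, 128 and 124 in U87 MG and fell. H19 had 34.6, 37.0 and 150.0 in U87-R, against 21.6, 35.2 and 224 in U87 MG, and the spread within lines was larger than any difference between them.

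Cancer-testis genes of the X chromosome, silent in most somatic tissue, moved both ways, with 3 rises (37.5%) and 1 fall (12.5%) among 8 tested of 32 in the table, where 3.13% of all genes rose and 1.15% fell. MAGEA11 had 162, 159 and 284 in U87-R, against 1.19, 1.21 and 3.31 in U87 MG and MAGEA1 had 463, 479.6 and 899 in U87-R, against 50.9, 91.7 and 119 in U87 MG. MAGEA6 had 0.929, 0 and 0 in U87-R, against 52.6, 41.7 and 72.0 in U87 MG, the opposite pattern. MAGEA11, near 0 in U87 MG, and MAGEA6, near 0 in U87-R, passed the filter on low values only through the other line. The shares of this list therefore describe its tested genes, not the whole family. These genes have close copies, so counts of a member can hold reads of another. CT45A10, with a rise of 2.44 (SE 0.53), lost its call without U87-R replicate 2 or 3 or U87 MG replicate 1 or 2 (highest adjusted p 0.126). Of 42 interferon response genes 4 rose (9.52%, where 3.13% of all genes did), and BST2, which tethers budding viruses, had 355, 291 and 447 in U87-R, against 106, 34.1 and 60.8 in U87 MG. IFITM3, IFITM2 and IRF9 had changes of 0.87 (SE 0.16), 1.46 (SE 0.30) and 0.97 (SE 0.22). All 3 calls were lost without U87-R replicate 2, U87-R replicate 3, U87 MG replicate 2 or U87 MG replicate 3, and that of IRF9 also without U87-R replicate 1 (highest adjusted p 0.165). Of 7 metallothioneins, small proteins that bind zinc and copper, 2 fell (28.6%, where 1.15% of all genes did). None of the 7 had a change above 0, and their median was -0.846. MT1E had 1225, 1174 and 1255 in U87-R, against 2213, 1929 and 2459.9 in U87 MG and MT1X had 405, 461 and 388 in U87-R, against 691, 734 and 851 in U87 MG.

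Markers of glia were mixed. GFAP had 1.38, 7.39 and 13.8 in U87-R, against 38.3, 9.55 and 0.551 in U87 MG, and ALDH1L1, S100B and MOG did not exceed 11.4 in any library. The gap junction gene GJA1 had 4330.0, 4364 and 5062 in U87-R, against 2759, 2960.5 and 3444 in U87 MG, the glutamate transporter gene SLC1A2 had 189.6, 173 and 144 in U87-R, against 85.0, 36.4 and 28.1 in U87 MG, and its relative SLC1A3 had 782, 741 and 581 in U87-R, against 1475, 777 and 763 in U87 MG. GJA1 and SLC1A2 were higher in U87-R without overlap, and both rose, 2 of the 4 astrocyte markers tested. The GJA1 call was lost when any library but U87 MG replicate 3 was left out and that of SLC1A2 when any but U87 MG replicate 1 was (highest adjusted p 0.109 for both). AQP4, SOX2 and SOX10 were not analysed here. Summed over the astrocyte list, the level was 5305, 5294 and 5807 in U87-R, against 4359, 3796 and 4240.2 in U87 MG, most of it from GJA1. Mesenchymal markers were uneven too, and none of the 8 tested passed. VIM had 100615, 108433 and 110915 in U87-R, against 98356, 118830.0 and 126247 in U87 MG, and FN1, COL1A1, COL1A2 and PDGFRB were abundant, while THY1 did not exceed 5.74 and DCN, LUM and COL3A1 did not exceed 127 in any library. Of 16 genes of glioma stem and astrocyte identity 5 rose (31.2%, where 3.13% of all genes did), GJA1 and SLC1A2 among them. The zinc finger factor SALL2, on chromosome 14, had 189, 172 and 188 in U87-R, against 52.2, 51.2 and 48.6 in U87 MG and rose by 1.83 (SE 0.19). The intermediate filament gene NES had 1726, 2117 and 3313 in U87-R, against 1169, 929 and 1023 in U87 MG, with its call lost without U87-R replicate 2 or U87 MG replicate 2 or 3 (highest adjusted p 0.0993). SALL2 and NES were 2 of 4 glioma stem markers tested, and the others were lower without passing. CD44 had 21888, 23746 and 26985 in U87-R, against 25270, 28197.5 and 33241.5 in U87 MG. FUT4 had 124, 158 and 179 in U87-R, against 159.96, 146 and 205 in U87 MG. The groups overlapped in both. The summed level of the stem markers, mostly CD44, was 23937, 26197 and 30671 in U87-R, against 26651, 29338 and 34532 in U87 MG. Of the leukocyte markers, PTPRC was listed at 0 in 5 of 6 libraries, whereas CD68, a lysosomal protein gene, had 9712, 10976 and 9446 in U87-R, against 10778, 12196 and 13491 in U87 MG. Of the endothelial markers, CDH5 did not exceed 5.52 in any library, whereas the VEGF receptor gene KDR had 95.7, 144 and 162 in U87-R, against 147, 155 and 296 in U87 MG. The myeloid receptor gene CSF1R had 124, 111 and 127 in U87-R, against 205, 209 and 212 in U87 MG, a fall whose call was lost whichever library was left out (highest adjusted p 0.126). Of 13 keratins tested of 29 in the table, 4 rose (30.8%, where 3.13% of all genes did). Of these KRT81, known from hair, held under every alternative, with 43.7, 58.2 and 82.1 in U87-R, against 2.15, 1.87 and 6.41 in U87 MG. KRT81 passed the filter on low values only through its level in U87-R, so the share describes the tested keratins. KRT8 had 454, 516 and 659 in U87-R, against 305, 228 and 245 in U87 MG, a call lost without U87-R replicate 2 or U87 MG replicate 2 (highest adjusted p 0.0655). It carried the summed level of the epithelial markers, which was 476, 547 and 705 in U87-R, against 323, 237 and 251 in U87 MG, while EPCAM, KRT18 and KRT19 did not exceed 27.4 in any library. The part of these markers in other results was not tested, and in bulk RNA fewer cells of a type and less RNA per cell cannot be told apart.

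The calls were unevenly spread over the genome. Genes were placed with GENCODE 29 on GRCh38 and grouped in windows of 10 Mb. Of 295 windows with at least 10 tested genes, 20 had a median log2 change at least 0.25 from that of all genes, and runs of at least 3 such windows were found on chromosomes 4, 5 and 14. The thresholds for a run were chosen after the values had been seen, so the runs are descriptions. 

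The first 50 Mb of chromosome 4, its short arm with the centromere, held 162 tested genes, with a median log2 change of -0.553 and quartiles of -0.722 and -0.375. Only 6.17% of them were above 0. Of these genes 46 fell (28.4%) and 2 rose, whereas the rest of the chromosome, with 408 genes, had a median of -0.065 and 8 falls. The median deviation of the stretch from the mean of the 6 libraries was -0.144, -0.19 and -0.498 in the U87-R libraries and 0.292, 0.287 and 0.254 in the U87 MG libraries. Replicate 3 was the lowest, and without it the median log2 change was -0.449. LRPAP1, a chaperone of lipoprotein receptors, was among the most abundant genes that fell and kept its call under every alternative, with 2427, 2491 and 2599.6 in U87-R, against 3753, 3839 and 4303 in U87 MG. UCHL1, a neuronal deubiquitinase, had 3652, 2999 and 1835 in U87-R, against 8477, 7022 and 5799 in U87 MG, and its call was lost without U87 MG replicate 2. CTBP1, a transcriptional corepressor, had 2381, 2709 and 2117 in U87-R, against 3644, 3687 and 3749 in U87 MG, and its call was lost without U87-R replicate 1 or U87 MG replicate 2. The histone methyltransferase gene NSD2 had 4679.6, 5341 and 5192 in U87-R, against 6777, 8336 and 9781 in U87 MG, and its call was lost when any library but U87 MG replicate 1 was left out. The highest adjusted p of these 3 over the alternatives was 0.0857, 0.0756 and 0.11, in the order given. In all 4 the U87 MG libraries were higher without overlap. The number of falls was 15 without U87-R replicate 2 or without U87 MG replicate 2, 30 without U87-R replicate 3 and 27 without U87 MG replicate 1 or 3.

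The first 50 Mb of chromosome 5 gave the same picture. Its 139 tested genes had a median of -0.562, 24 of them fell (17.3%) and none rose, while the other 642 genes of the chromosome had a median of 0.001. The median deviation was -0.171, -0.174 and -0.549 in the U87-R libraries and 0.241, 0.299 and 0.28 in the U87 MG libraries, and the log2 change without U87-R replicate 3 was -0.433. ANKH, which exports pyrophosphate and ATP, kept its call under every alternative, with 1013, 937 and 1118 in U87-R, against 1856, 1847 and 1716 in U87 MG. OSMR, a receptor subunit for oncostatin M, had 2309, 1925 and 1066 in U87-R, against 4134, 4235 and 4699 in U87 MG, and CCT5, a subunit of the chaperonin TRiC, had 5026, 4888 and 3933 in U87-R, against 6461, 7232 and 7312 in U87 MG. SDHA, a subunit of succinate dehydrogenase, had 1871, 2002 and 2011 in U87-R, against 2632, 2900.2 and 3204 in U87 MG. Groups did not overlap in any of the 4. The OSMR call was lost without U87 MG replicate 2 or 3 (highest adjusted p 0.0891), that of CCT5 without U87-R replicate 2 or U87 MG replicate 2 or 3 (0.108), and that of SDHA without U87-R replicate 1 or 2 or U87 MG replicate 2 (0.0847). The number of falls was 3 without U87 MG replicate 2, 8 without U87-R replicate 2, 10 without U87 MG replicate 3, 13 without U87-R replicate 1, 14 without U87-R replicate 3 and 16 without U87 MG replicate 1.

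Chromosome 14 was shifted up along most of its length. Of 541 tested genes 107 rose (19.8%) and 3 fell, with a median of 0.407. From 20 Mb to 80 Mb the median was 0.444 and 90.8% of 382 genes were above 0, and the remaining 159 genes had a median of 0.333. The median deviation between 20 Mb and 80 Mb was 0.189, 0.194 and 0.294 in the U87-R libraries and -0.214, -0.248 and -0.242 in the U87 MG libraries. HIF1A, the oxygen-regulated transcription factor gene, had 9296, 8976 and 10544 in U87-R, against 6313, 6009 and 7187 in U87 MG, a change of 0.56 (SE 0.11). Its call was lost without any of the U87-R libraries or U87 MG replicate 1 or 2 (highest adjusted p 0.11). MMP14 had 15556, 16252 and 16364 in U87-R, against 11081, 10130.0 and 9881 in U87 MG. The ribosomal protein genes RPS29 and RPL36AL rose by 0.65 (SE 0.10) and 0.76 (SE 0.11). They were the sole passing genes among 80 of their kind (2.5%, where 3.13% of all genes rose). Larger rises stood out within the chromosome. EGLN3, an oxygen-sensing hydroxylase induced by low oxygen, had 459, 521 and 1131 in U87-R, against 84.2, 112 and 137 in U87 MG. SLC22A17, a receptor of lipocalin, had 656, 662 and 742 in U87-R, against 169, 167 and 121 in U87 MG, and TNFAIP2, a TNF-induced gene, had 4529.9, 5378 and 7508 in U87-R, against 1417, 1225 and 1238 in U87 MG. RTN1, a reticulon gene, went against the chromosome, with 432, 425 and 257 in U87-R, against 870.4, 1073 and 1018 in U87 MG. The number of rises on the chromosome was 38 without U87-R replicate 2, 41 without U87 MG replicate 2, 53 without U87-R replicate 3, 59 without U87-R replicate 1 and 70 without U87 MG replicate 1.

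**Figure D3:**
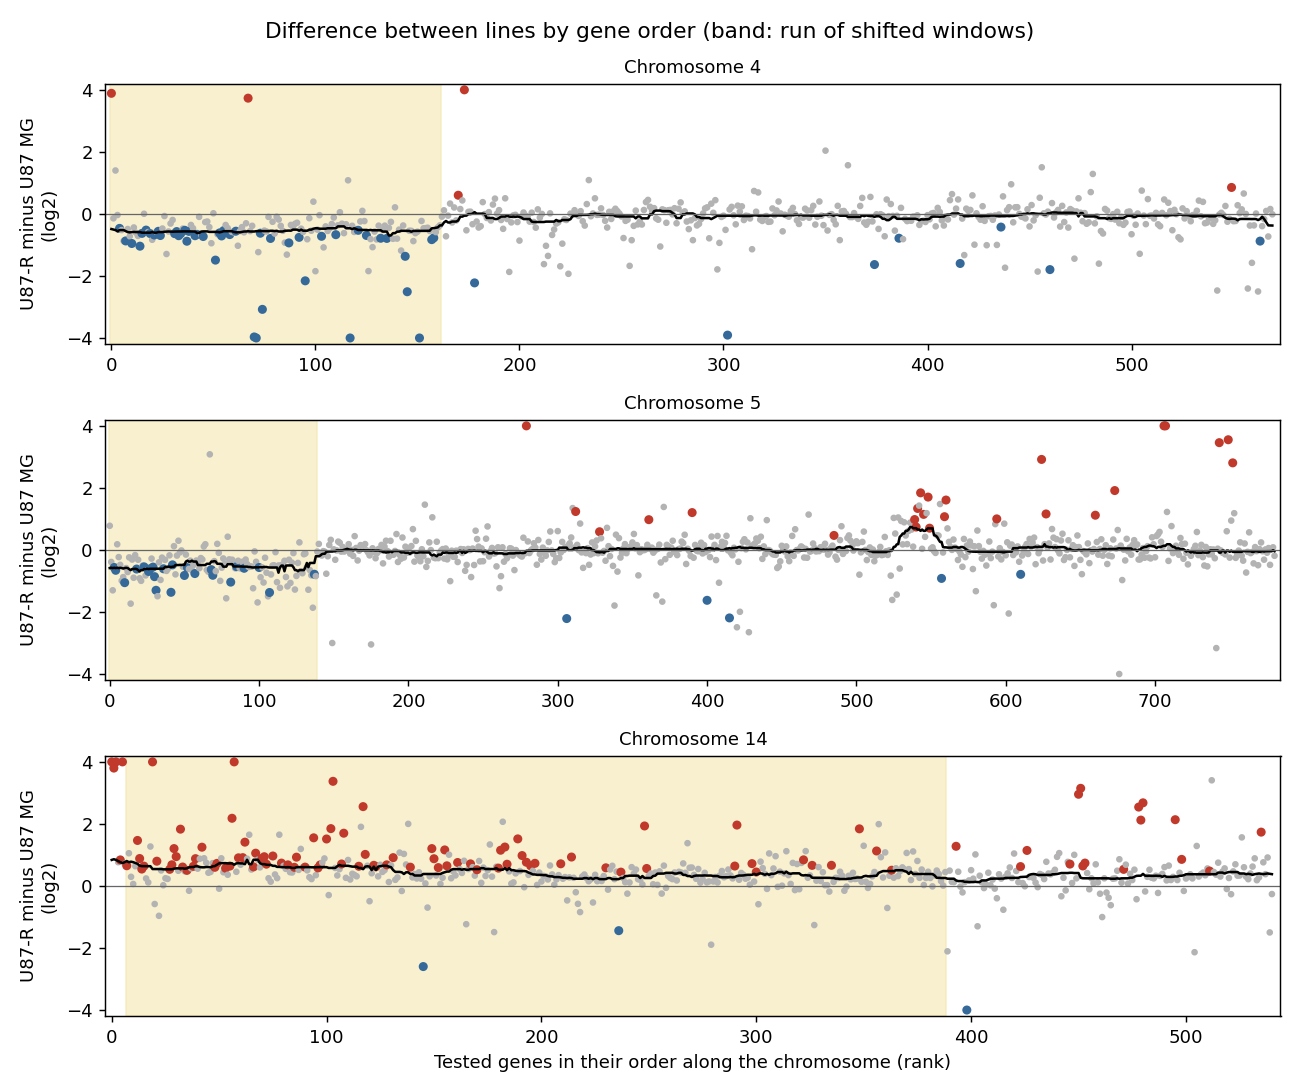
Log2 difference between U87-R and U87 MG (y axis, values beyond 4 or below -4 drawn at the edge) for the tested genes of chromosomes 4, 5 and 14 in their order along each chromosome (x axis, rank). Red points rose, blue points fell, gray points did not pass, the line is a running median and the yellow band marks the run of shifted windows. The running median lies below 0 in the first 162 genes of chromosome 4 and the first 139 of chromosome 5, and above 0 along chromosome 14.

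**Figure D4:**
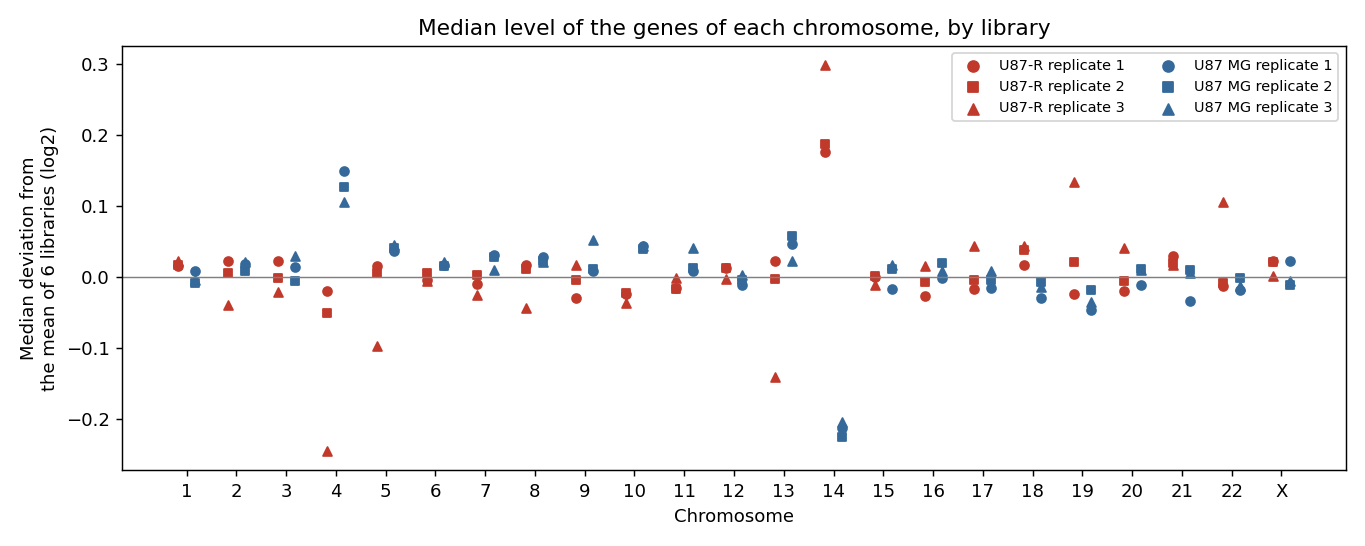
Median deviation of the genes of each chromosome (x axis) from the mean of the 6 libraries (y axis, log2), with the U87-R libraries in red on the left of each pair and the U87 MG libraries in blue on the right. The lines are furthest apart on chromosomes 14 and 4, and U87-R replicate 3 stands away from its group on chromosomes 4, 5, 13, 14, 19 and 22.

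The stretches of chromosomes 4 and 5 together held 1.85% of the tested genes and 70 of the 187 falls (37.4%), and chromosome 14 held 21% of the rises. Outside these stretches and the zinc finger genes of chromosome 19, 331 of 15258 genes rose and 114 fell. In the libraries treated with STM2457, the medians relative to that of all genes were -0.628 and -0.616 for the stretches of chromosomes 4 and 5 and 0.504 for chromosome 14 between 20 Mb and 80 Mb, with levels set across tables. DNA copy number was not measured in this series, so its part in these shifts was not tested.

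Zinc finger genes (ZNF, ZFP, ZSCAN and ZKSCAN) made up 83 of the 510 rises. Most of them encode KRAB zinc finger proteins, repressors that bind DNA, often within transposable elements, and they lie in tandem clusters on chromosome 19. Of 459 tested, 18.1% rose and 2 genes fell. On chromosome 19, 70 of 206 rose (34.0%) and none fell, while 13 of 253 on other chromosomes rose (5.14%, where 3.13% of all genes did). Other genes of chromosome 19 stayed near the background, with 30 of 864 rising (3.47%). The number of rising zinc finger genes on chromosome 19 lay between 47 and 66 when a library was left out, and was 28 with a mean of at least 50, since most of these genes are expressed at a low level.

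The filter on low values bears on these counts. Of 250 zinc finger genes of chromosome 19 in the table, 206 were tested, and 66 of these had a U87 MG mean under 10, so that they passed the filter only through their level in U87-R. Of the 66, 55 rose, and of the other 140, 15 rose. Rises on other chromosomes include such cases, with ZNF488 at a U87 MG mean of 1.61. The shares above and below are therefore descriptions of the tested genes, not of the whole family.

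Most rises lay in 3 stretches of chromosome 19. Between 20 Mb and 24 Mb, in band 19p12, 14 of 18 tested zinc finger genes rose, of 25 in the table, and 16 of the 18 had a U87 MG mean under 10. None of 4 other genes there rose. Between 36 Mb and 40 Mb, 20 of 25 tested rose, of 31 in the table, 18 of the 25 with a U87 MG mean under 10, and 2 of 49 other genes rose. Between 52 Mb and 56 Mb, 19 of 35 tested rose, of 39 in the table, 17 of the 35 with a U87 MG mean under 10, and 4 of 49 other genes rose. Smaller groups also held rises, with 4 of 6 between 16 Mb and 20 Mb and 4 of 13 between 12 Mb and 16 Mb. At the end of the chromosome, between 56 Mb and 60 Mb, 3 of 43 tested rose, of 55 in the table, and 2 of the 43 had a U87 MG mean under 10.

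The 70 rising genes had a median of their group means of 88.0 in U87-R and 3.16 in U87 MG, as normalized counts. A U87 MG mean of at most 5 was seen in 43 of them, and the others were above it. ZNF570, whose promoter is shown above, had 102, 106 and 111 in U87-R, against 0, 0 and 0 in U87 MG (adjusted p = 0.00028). ZNF90 had 87.4, 80.1 and 102 in U87-R, against 0, 3.25 and 0 in U87 MG, and ZNF737 had 38.2, 36.4 and 96.3 in U87-R, against 0, 0 and 0 in U87 MG. ZNF83 had 241, 283 and 379.6 in U87-R, against 0, 3.65 and 11.99 in U87 MG, and ZNF875, which was also expressed in U87 MG, had 596, 654 and 811 in U87-R, against 30.7, 35.1 and 30.7 in U87 MG. On other chromosomes, ZNF488, on chromosome 10, had 166, 156 and 106 in U87-R, against 0, 1.96 and 2.87 in U87 MG. The 2 falls were ZNF518B, in the shifted stretch of chromosome 4, with 29.1, 19.3 and 5.71 in U87-R, against 157, 116 and 132 in U87 MG, and ZNF608, on chromosome 5 beyond its stretch, with 23.6, 18.98 and 31.4 in U87-R, against 67.4, 82.9 and 80.4 in U87 MG. The ZNF608 call was lost without U87-R replicate 1 or 2 or U87 MG replicate 2 or 3 (highest adjusted p 0.0913). In the libraries treated with STM2457, 65 of the 70 had a higher mean in U87-R. Zinc finger genes of a cluster are close copies, so reads can be assigned to the wrong member.

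**Figure D5:**
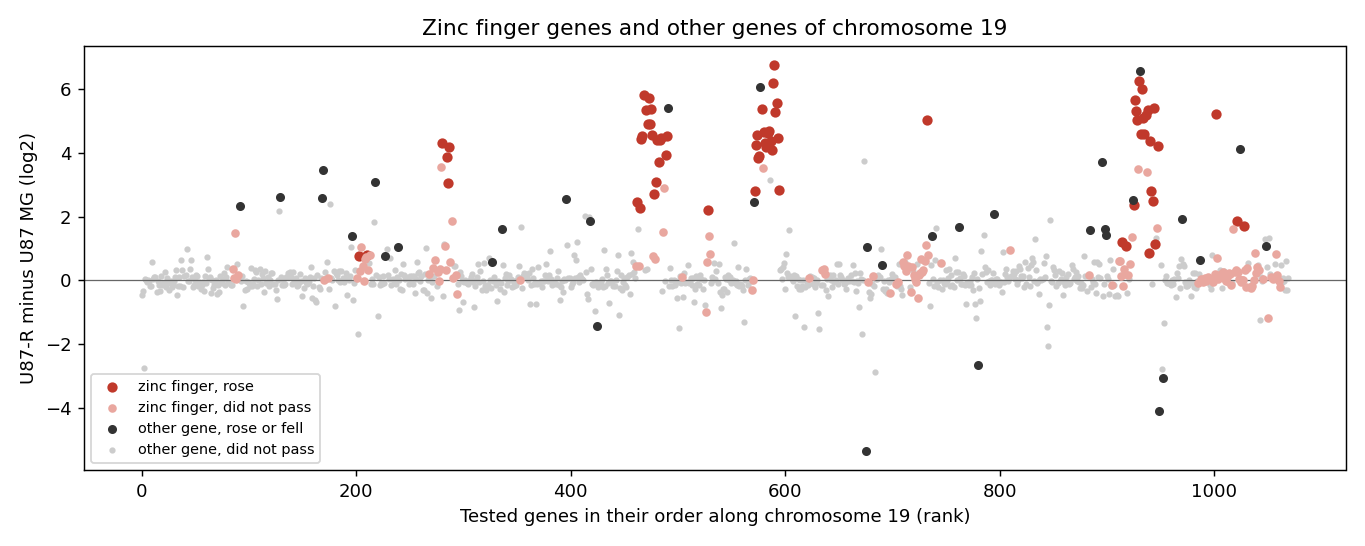
Log2 difference between U87-R and U87 MG (y axis) for the tested genes of chromosome 19 in their order along the chromosome (x axis, rank). Red points are zinc finger genes that rose, pink points zinc finger genes that did not pass, black points other genes that passed and gray points the rest. Most red points gather in 3 groups at log2 changes of about 2 to 6, and the group of zinc finger genes at the end of the chromosome lies near 0.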

How the data were processed

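Polyadenylated RNA of U87-R and U87 MG cells in DMSO was sequenced in 3 libraries per line. The deposited tables hold normalized counts, a signal that the authors made from gene-level read estimates and that is neither whole nor set per gene length. Per the submitters' processing notes, DESeq2 and Salmon 1.4.0 were used beside STAR 2.7.11a and Trimmomatic 0.39, with GRCh38 as the build and no order or settings given. At most 46.7% of the low values of a library were whole multiples (within 0.05) of any single step, so read numbers were not recovered, read depth is unknown and count models were left out. The values used for the test come from a single table.

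Values were put on the scale log2(value + 1), and genes whose mean over the 6 libraries reached 10 were fitted with limma 3.58.1 (R 4.3.3), letting the variance follow the mean. Tests are two-sided, with adjustment over all genes fitted. Changes of low genes are understated on this scale. Symbols came from a reference of gene names, with the GENCODE 29 name where that had none, and places came from GENCODE 29. Of the 16306 tested identifiers, 15010 had a symbol and 16166 a place. Tables and plots were made with Python 3.11.15, pandas 2.3.3, numpy 2.4.6 and matplotlib 3.10.9. The fit was tested on 5 simulated sets. It recovered 9.84% of log2 changes of size 0.5, 46.7% of size 1, 73.9% of size 2 and 89.2% of size 3. A list in which no gene passed can therefore hold changes of the smaller sizes.

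The comparison, its 67 gene lists and families and the genes named were chosen with earlier results of these data known. The rule for named genes took the 20 largest passing rises and falls without overlap between groups (mean of 100 or more), up to 6 passing genes per list, genes near 0 in a line, a panel of repair, cell cycle, m6A and drug handling genes, and 3 tested genes on each side of MGMT. Genes of the shifted stretches came from their 8 most abundant passing genes, and further genes were chosen after their values were seen. Some genes that the rule selects are not reported here. Alternatives changed the pseudocount (0.5 or 5), the filter (none, or 50), the scaling (totals or upper quartiles made equal), the variance trend, the replicate block, the threshold (an adjusted p of 0.01, or a log2 size of 1 in addition), and left out each library.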

Additional observations from a re-analysis of the deposited data

Results flagged for a closer look

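The stretches of chromosomes 5 and 14 moved one way in every U87-R library and the other way in every library labelled LN229-R, the temozolomide-resistant derivative of the glioblastoma line LN229, and this difference was not tested. In the first 50 Mb of chromosome 5, the median log2 difference of the libraries labelled LN229-R from those labelled LN229 was 0.42 over 114 genes, against -0.562 for U87-R from U87 MG. Its median deviation was 0.245, 0.168 and 0.203 in the libraries labelled LN229-R and -0.159, -0.282 and -0.182 in those labelled LN229. On chromosome 14 between 20 Mb and 80 Mb the median difference was only -0.06 over 338 genes, against 0.444. In the LN229 comparison, the rest of chromosome 5 had a median of -0.017 and the rest of chromosome 14 one of -0.011. The LN229 names conflict between the deposited tables. Each of the 6 columns of LN229 libraries in DMSO was closest, in the tables that hold the STM2457 treatments, to the like-numbered library that bears the name of the other line, with an SD of the log2 ratio of 0.0568 to 0.0615, against 0.3 to 0.363 for the like-named library. In the U87 lines all 6 were closest to the like-named library, at 0.0577 to 0.0594. The first 50 Mb of chromosome 4 were lower in the libraries labelled LN229-R as well, with a median difference of -0.093 over 136 genes. The rest of that chromosome had -0.073. Whole chromosomes 13 and 21 had -0.133 and -0.151 in the same comparison. The values for the stretches of chromosomes 4 and 14 thus do not stand out in LN229, unlike that of chromosome 5. With the LN229 names exchanged, all 3 signs would turn, so that the stretches of chromosomes 5 and 14 would have the sign seen in U87-R and that of chromosome 4 the opposite one.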

How the results depend on the processing

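Of 156 named genes that passed, 85 passed under every alternative, and no named gene changed sign. Without the variance trend, 62 of the 196 named genes had a weaker result, as did 62 without U87 MG replicate 2. Losses of calls are given above for left-out libraries, and many of those calls were also lost without the trend. Among these were APEX1, MAD2L1, ABCC3, DOK6, NES, KRT8 and GJA1. CSMD1, IGFBP5, L1CAM and ZNF518B lost their call without the trend and under no other alternative, with adjusted p of 0.0533, 0.0527, 0.0843 and 0.0538.

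The number of genes that passed was 697 (510 higher, 187 lower). Without the variance trend it was 396 (304 higher, 92 lower), at an adjusted p under 0.01 it was 262 (213 higher, 49 lower), and at an adjusted p under 0.05 with a log2 change of at least 1 it was 447 (348 higher, 99 lower). Leaving out a library gave 315 to 607 genes, with 229 to 444 higher and 60 to 163 lower. With the replicate number as a block, 1176 genes passed (775 higher, 401 lower). With the mean of each line taken off, like-numbered libraries correlated at 0.0801, 0.0189 and 0.14, and unlike-numbered ones at -0.136 to 0.0612. The values for replicates 1 and 3 were thus above every unlike-numbered one, and that for replicate 2 was not. The labels do not say whether a replicate number marks a batch, so a batch shared by like-numbered libraries remains possible. The main fit left the number out. The other settings of scale, filter and pseudocount kept the counts within 1.5 times.

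With means of at most 2 and at least 50, 26 genes were near 0 in U87 MG and 7 in U87-R. Leaving out a library gave 11 to 24 genes near 0 in U87 MG and 1 to 4 in U87-R. The near-0 counts rest on group means and on no fit, and the cause of their changes was not tested. Without the variance trend, 10 genes fell in the stretch of chromosome 4, 4 in that of chromosome 5, and 44 rose on chromosome 14, while 63 zinc finger genes rose on chromosome 19. With the block these counts were 72, 43, 168 and 74. These counts were added after the data were seen. No library's read depth is known, and 3 libraries per line limit what can be called.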
